A study of Rattus norvegicus with 12 samples.

Results

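The genes described here are the extracellular matrix and fibrosis genes of the rat liver. They are a set of 39 symbols listed by name for their known roles, with no threshold on their measured values. The set was chosen with earlier results of these data known, so its shares of called genes are a description and not an independent test. Of the 39, 33 matched a gene symbol among the 16478 genes counted, and 30 of those passed the filter on low counts, out of 9943 genes tested. Col6a1, Col4a2, Lamb1, Nid1, Thbs1 and Acta2 matched no symbol and were not analysed here. Lox, Postn and Lum were counted but were too low to test. Whole-liver RNA was sequenced from 6 female and 6 male ZSF1 rats, all adult, obese, 16 weeks old and untreated, and every animal was a library of its own. The ZSF1 rat is a hybrid model of obesity with diabetes and raised blood pressure, and its obese animals carry defective copies of the leptin receptor gene. Because no lean animals were among the samples, the data compare the sexes within obesity and hold no measure of what obesity itself does to the matrix. The animals are named by sex and by the number in their labels, which was 1 to 6 for males and 7 to 10, 12 and 13 for females.

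The hepatic matrix is thin in health and lies mainly around portal tracts, central veins and the perisinusoidal space. Hepatic stellate cells, portal fibroblasts, endothelial cells and hepatocytes all contribute to it. In fibrosis, transforming growth factor beta acts through its type II and type I receptors to drive stellate cells towards a contractile, collagen-secreting state, while lysyl oxidases crosslink the new fibres and the balance of metalloproteinases and their inhibitors sets how fast they are removed. RNA level measures none of these deposits directly. In whole liver, fewer cells of a type and less RNA per cell cannot be told apart.

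Levels below are CPM, gene counts rescaled to a common library total, scaled for library composition. Gene counts ran from 6763879 to 24837602 per female library and from 11381428 to 29232871 per male library. A floor of 3 counts therefore corresponded to between 0.103 and 0.444 CPM, before the scaling for composition. Levels are compared between animals for each gene. Transcript lengths were not used here, so shares of a summed level and ratios between genes describe counts and not numbers of transcripts. The p-values weigh the difference between the sexes against the spread between these animals. Male 4 stood apart from the other 5 males. Its 33 counted members took 0.313% of gene counts, against 0.221 to 0.253% in the other males and 0.213 to 0.254% in the females, and it was the highest male for 22 of the 30 tested members, while it was the highest male for 28.6% of all genes tested. It also had the highest summed acute phase signal, 82212 CPM over 14 genes against 34630 to 40140 CPM in the other males and 25373 to 32968 CPM in females. Its summed Kupffer cell and macrophage markers were 584 CPM, against 148 to 261 CPM in the other males. Results for the members are therefore given with and without male 4. Because male 4 was singled out partly by its member levels, leaving it out was bound to lower the male mean for those members. Values without male 4 describe that dependence and are not separate evidence.

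Matrix genes differed between the sexes mostly by being higher in females. At an adjusted p of 0.05, 12 of the 30 tested members were higher in females and 2 were higher in males, while 16 did not pass the test. Across all genes tested, 20.5% were called higher in females and 22.7% higher in males. Without male 4, 20 members were higher in females and 1 was higher in males, against 24.0% and 22.4% of all genes. The log2 difference, females minus males, was positive for 22 members, with a median of 0.28 beside -0.01 over all genes. Without male 4 it was positive for 23, with a median of 0.39 beside 0.01. Summed over all 33 counted members, levels were 2000.3 to 2575 CPM in females and 2266 to 3235 CPM in males, and Fn1 and Col18a1 made up most of each sum. Without those members the sums were 587 to 803 CPM in females, 461 to 564 CPM in males other than male 4 and 748 CPM in male 4. For 5 members every female lay above every male, and for 1 every male lay above every female, where 10.1% and 12.8% of all genes were separated in this way. The 5 were Timp3, Col6a3, Loxl2, Mmp14 and Thbs2, and the 1 was Col18a1.

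**Figure D1:**
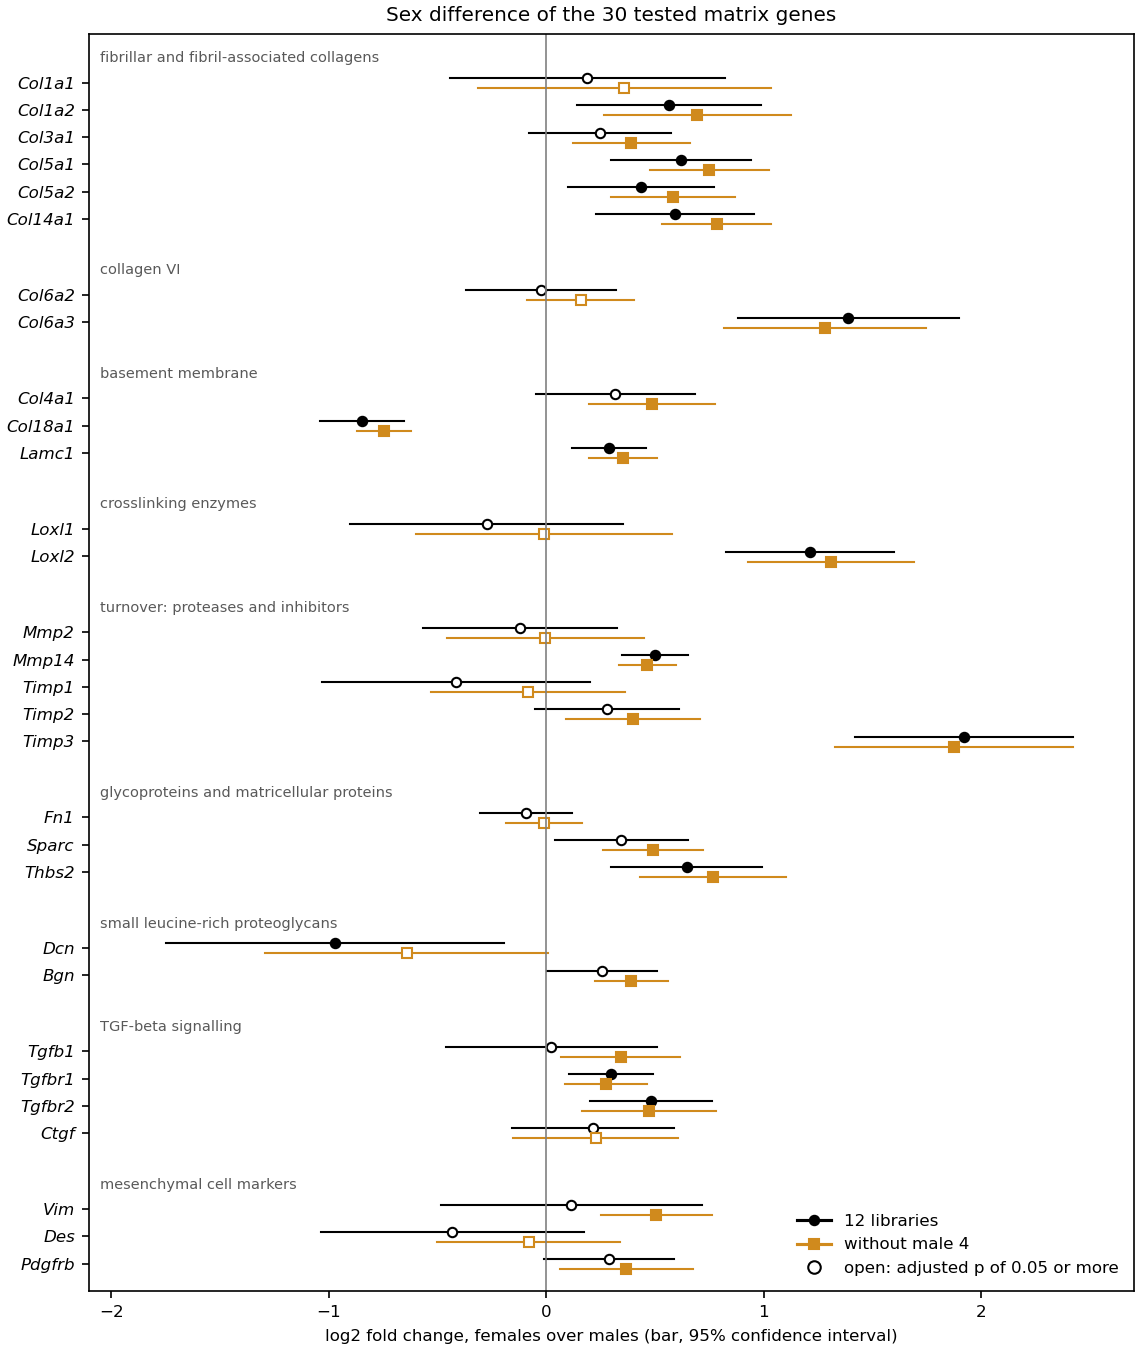
Log2 difference in level, females minus males, for each of the 30 tested members, grouped by role, with 95% confidence intervals, from all 12 animals and again without male 4. Timp3 (1.92) and Col6a3 (1.39) lie farthest to the female side, Dcn (-0.97) and Col18a1 (-0.85) farthest to the male side, and most fibrillar collagens move further to the female side once male 4 is left out.

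The widest differences with the sexes fully separated were those of Timp3 and Col6a3 towards females and of Col18a1 towards males. Their promoter windows, the 250 bases before the annotated start of each gene, are shown because these members mark both ends of the range. They come from RefSeq on build GRCr8, where 20 of the 33 counted members had a promoter entry. Timp3 lies at chr7:19459559-19459808 on the minus strand, Col6a3 at chr9:98886959-98887208 on the minus strand and Col18a1 at chr20:11473395-11473644 on the plus strand. Capitals mark GGGCGG, the GC box bound by Sp1-family factors, CCAAT, and CAGAC, a core element bound by SMAD proteins, each on either strand.
Timp3: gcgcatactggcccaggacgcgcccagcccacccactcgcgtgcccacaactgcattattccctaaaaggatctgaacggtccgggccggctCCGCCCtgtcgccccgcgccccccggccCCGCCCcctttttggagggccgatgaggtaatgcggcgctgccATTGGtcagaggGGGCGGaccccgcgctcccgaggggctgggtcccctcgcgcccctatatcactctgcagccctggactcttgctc
Col6a3: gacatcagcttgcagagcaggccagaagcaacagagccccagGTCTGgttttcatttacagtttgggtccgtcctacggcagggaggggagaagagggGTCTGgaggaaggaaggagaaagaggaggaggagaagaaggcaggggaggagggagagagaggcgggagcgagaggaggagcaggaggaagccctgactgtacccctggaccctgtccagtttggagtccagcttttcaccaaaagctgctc
Col18a1: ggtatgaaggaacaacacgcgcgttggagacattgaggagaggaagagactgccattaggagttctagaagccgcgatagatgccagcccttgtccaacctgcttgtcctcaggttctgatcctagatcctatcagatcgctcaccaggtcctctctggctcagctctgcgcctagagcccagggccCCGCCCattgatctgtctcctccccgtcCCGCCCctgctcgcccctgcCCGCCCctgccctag
The Timp3 window held 3 GGGCGG matches and 1 CCAAT match, and 69.6% of its bases were G or C. The Col6a3 window held neither of these motifs and 2 CAGAC matches, in sequence of 58.4% G and C with a long purine-rich run. The Col18a1 window held 3 GGGCGG matches, the last ending close to the gene's start, and no CAGAC match. Of the 20 member windows, 12 held GGGCGG, 7 held CCAAT and 9 held CAGAC, where 30.5%, 34.0% and 42.9% of all 33469 windows of that length did. TATAAA was present in 4 member windows and in 12.9% of all windows. TTCNNNGAA, the palindrome bound by STAT5, was in 0 of the 20 and in 7.7% of all. These are letter matches only. Binding was not measured.

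The fibrillar collagens form the load-bearing fibres of scar, and Col14a1 is fibril-associated. Of these 6 tested members, 4 (66.7%) were higher in females, and 5 (83.3%) without male 4. Over all genes tested, 20.5% and 24.0% were higher in females in those settings. The calls for Col5a1 and Col14a1 held whichever single animal was left out, and those for Col1a2 and Col5a2 did not. Col5a1, a chain of the type V collagen that starts fibril assembly, ran from 8.81 to 14.4 CPM in females (median 10.9) and from 5.68 to 10.3 CPM in males (median 6.82). Only male 4, at 10.3 CPM, reached into the female range. Col5a1 was 1.54-fold higher in females (log2 0.62, SE 0.15, adjusted p = 0.00428) and 1.68-fold higher without male 4 (adjusted p = 0.000268). Col5a2, the partner chain, ran from 8.85 to 13.4 CPM in females (median 10.6) and from 6.09 to 11.6 CPM in males (median 7.59), and the ranges overlapped. It was 1.35-fold higher in females (adjusted p = 0.0352), 1.5-fold without male 4 (adjusted p = 0.0024), and its call was lost when any of females 7, 8 and 13 or males 1, 3, 5 and 6 was left out. Col14a1, which sits on fibril surfaces, ran from 23.7 to 37.5 CPM in females (median 31.5) and from 15.4 to 31.8 CPM in males (median 18.3). The highest of the other 5 males reached 20.6 CPM, below every female, so that the overlap came from male 4 alone. Col14a1 was 1.51-fold higher in females (log2 0.59, SE 0.17, adjusted p = 0.0118) and 1.72-fold without male 4 (adjusted p = 9.39e-05).

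The chains of type I and type III collagen, the bulk of fibrotic scar, overlapped between the sexes. Col1a2 ran from 11.9 to 24.3 CPM in females (median 20.6) and from 10.1 to 17.6 CPM in males (median 12.1), a 1.48-fold difference towards females (adjusted p = 0.0333) that rose to 1.62-fold without male 4 (adjusted p = 0.0124). The call for Col1a2 was lost when any of females 7, 8, 12 and 13 or males 1, 3, 5 and 6 was left out. Col1a1, the other type I chain, ran from 2.09 to 5.67 CPM in females (median 3.22) and from 1.93 to 4.92 CPM in males (median 2.80), and the ranges overlapped almost throughout. Its log2 difference of 0.19 did not pass the test (adjusted p = 0.64, and 0.369 without male 4). Col3a1, the type III chain, ran from 94.5 to 148 CPM in females (median 119.8) and from 79.9 to 144 CPM in males (median 93.0), where male 4 was the 144. It did not pass the test over all 12 animals (log2 0.25, adjusted p = 0.208) and was 1.31-fold higher in females without male 4 (adjusted p = 0.0206). The summed list of fibrillar and fibril-associated collagens was 152 to 230 CPM in females, 121 to 158 CPM in males other than male 4, and 220 CPM in male 4.

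**Figure D2:**
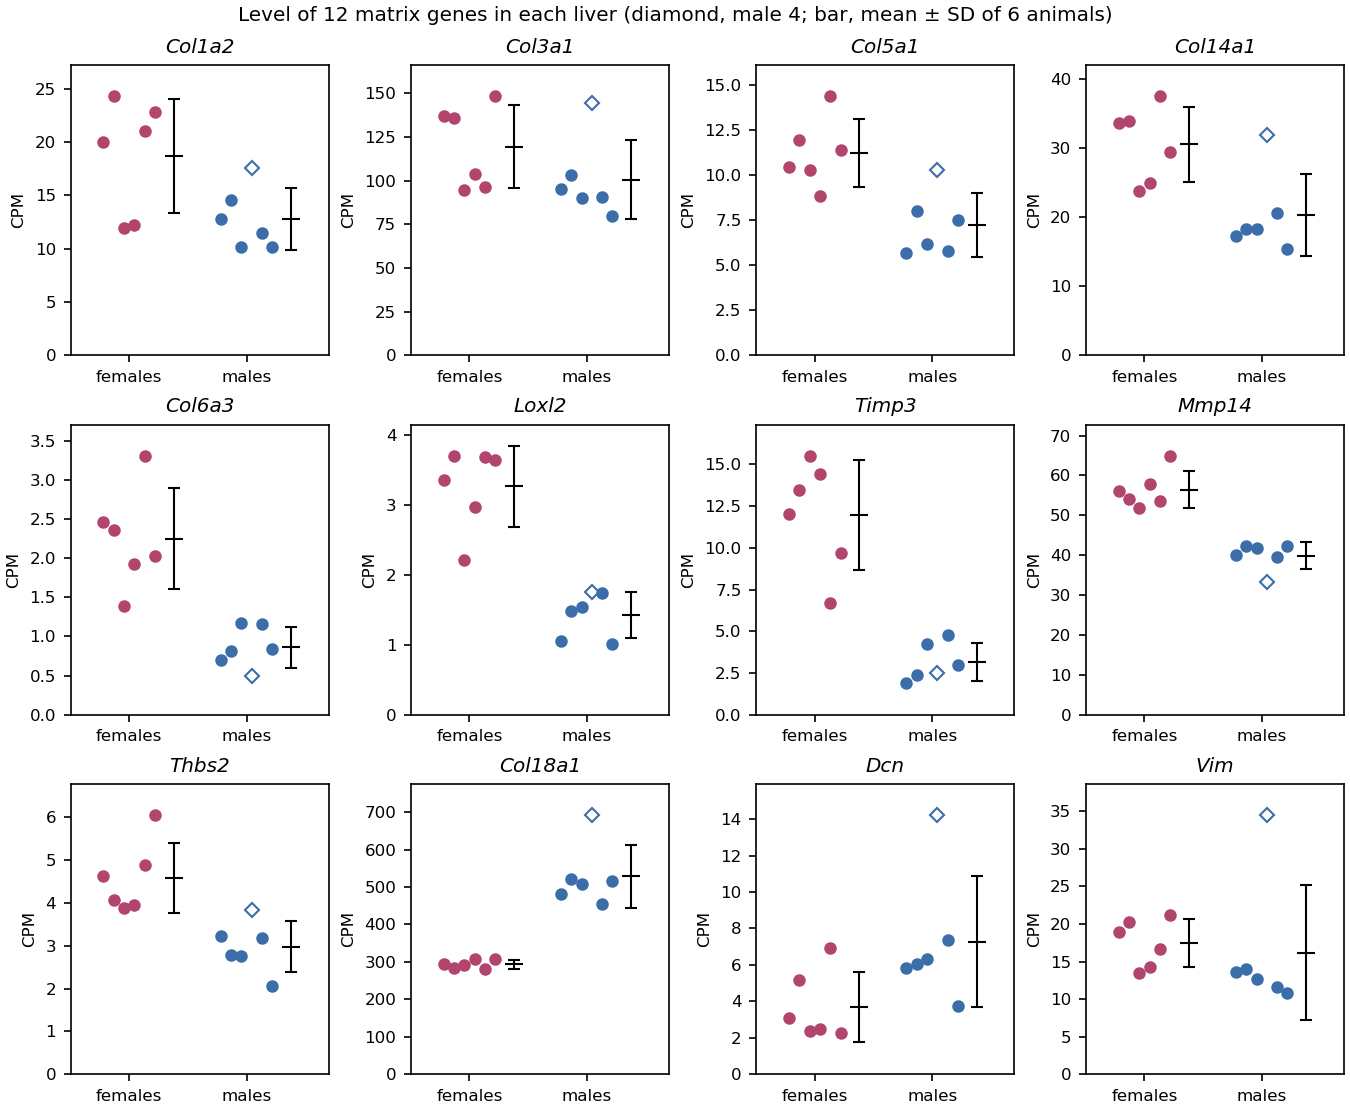
Level in CPM (linear axis from 0) of 12 members in each of the 6 females and 6 males, with bars for the mean ± SD of each sex and a diamond for male 4. The sexes do not overlap for Timp3, Col6a3, Loxl2, Mmp14, Thbs2 or Col18a1, and male 4 lies above the other males for Col14a1 and Dcn but lowest of the males for Col6a3 and Mmp14.

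Type VI collagen forms beaded microfibrils beside cells, and its chains did not move together. Col6a3 ran from 1.39 to 3.31 CPM in females (median 2.20) and from 0.494 to 1.17 CPM in males (median 0.83). Every female lay above every male, and male 4 was the lowest of the 12. Col6a3 was 2.62-fold higher in females (log2 1.39, SE 0.24, adjusted p = 0.000335) and 2.43-fold without male 4 (adjusted p = 0.000245), from 212 counts summed over the females and 91 over the males. Col6a2 ran from 9.56 to 14.8 CPM in females (median 11.6) and from 8.98 to 19.0 CPM in males (median 11.4). It gave no detectable difference (log2 -0.02, adjusted p = 0.923, and 0.16, adjusted p = 0.282, without male 4), and here male 4 was the highest animal. As a count ratio within each library, Col6a3 to Col6a2 was 0.144 to 0.272 in females and 0.026 to 0.129 in males, without overlap. The ratio in male 4 was the lowest of all, 0.026.

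Basement membrane members went in opposite directions, and their summed level, most of it Col18a1, was 340 to 372 CPM in females and 503 to 754 CPM in males. Col18a1 encodes a heparan sulfate collagen of vascular and epithelial basement membranes, and its C-terminal fragment is endostatin. It ran from 280.1 to 308 CPM in females (median 293) and from 455 to 691 CPM in males (median 512). The females lay close together, with the lowest male far above the highest female. Col18a1 was 1.8-fold higher in males (log2 -0.85, SE 0.09, adjusted p = 4.15e-06), and 1.68-fold without male 4, whose 691 CPM was the highest value (adjusted p = 1.12e-07). Lamc1, the gamma chain of most laminins, ran from 28.0 to 35.4 CPM in females (median 33.1) and from 22.5 to 31.2 CPM in males (median 26.5). The ranges overlapped and the difference was small, 1.22-fold towards females (adjusted p = 0.00867), or 1.28-fold without male 4 (adjusted p = 0.00114). Col4a1, a chain of the type IV network, ran from 19.7 to 31.1 CPM in females (median 27.6) and from 14.8 to 31.8 CPM in males (median 20.01). It passed the test only without male 4 (1.4-fold towards females, adjusted p = 0.00938, against 0.149 over all animals). The count ratio of Col18a1 to Col4a1 was 9.08 to 15.6 in females and 20.9 to 34.9 in males. It was among 10 ratios between members that were chosen after values were seen, of which 3 did not overlap between the sexes.

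Among the lysyl oxidase family, which crosslinks collagen and elastin, the sexes separated for Loxl2. Loxl2 ran from 2.22 to 3.70 CPM in females (median 3.50) and from 1.02 to 1.76 CPM in males (median 1.51). No male reached the lowest female, and male 4, though the highest male, lay beside male 5 at 1.74 CPM. The fold was 2.32 towards females (log2 1.21, SE 0.18, adjusted p = 0.000104) and 2.48 without male 4 (adjusted p = 3.72e-05), resting on 317 female and 149 male counts. Loxl1, tied to elastic fibres, ran from 0.602 to 1.23 CPM in females (median 0.986) and from 0.56 to 1.98 CPM in males (median 1.18). It did not pass the test (log2 -0.27, adjusted p = 0.482, and -0.01, adjusted p = 0.978, without male 4). Lox itself lay near the floor, at 0.15 to 0.762 CPM in females and 0.109 to 0.437 CPM in males, from 52 and 21 counts in all, and was not tested.

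Matrix turnover genes were higher in females where they differed. Timp3, the inhibitor of metalloproteinases and of ADAM17 that binds to the matrix itself, gave the largest fold of all members. It ran from 6.69 to 15.5 CPM in females (median 12.8) and from 1.92 to 4.78 CPM in males (median 2.75). The lowest female exceeded the highest male. Timp3 was 3.79-fold higher in females (log2 1.92, SE 0.23, adjusted p = 2.31e-05) and 3.66-fold without male 4 (adjusted p = 8.33e-05). Mmp14, the membrane-anchored collagenase that also activates MMP2, ran from 51.8 to 64.9 CPM in females (median 55.1) and from 33.2 to 42.3 CPM in males (median 41.0). Both ranges were narrow and did not overlap, and male 4 was the lowest animal. It was 1.42-fold higher in females (log2 0.50, SE 0.071, adjusted p = 6.53e-05), and 1.38-fold without male 4 (adjusted p = 2.79e-05). Within libraries the count ratio of Timp3 to Mmp14 was 0.125 to 0.299 in females and 0.0479 to 0.121 in males, without overlap. Summed over the 5 tested turnover members, levels were 73.8 to 87.9 CPM in females, 54.0 to 56.4 CPM in males other than male 4 and 53.2 CPM in male 4, and Mmp14 made up most of each sum.

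The other turnover members overlapped between the sexes. Timp1, the inhibitor that rises most readily in liver injury, ran from 1.25 to 3.38 CPM in females (median 1.79) and from 2.09 to 5.54 CPM in males (median 2.40). Male 4 held the 5.54, 2.41 times the mean of the other males. Timp1 did not pass the test (log2 -0.41, adjusted p = 0.265, and -0.09, adjusted p = 0.766, without male 4). Timp2 ran from 4.30 to 6.26 CPM in females (median 4.96) and from 3.36 to 5.60 CPM in males (median 3.96), and passed only without male 4 (1.32-fold towards females, adjusted p = 0.0339, against 0.16). Mmp2, the gelatinase that MMP14 activates, ran from 2.77 to 6.49 CPM in females (median 4.28) and from 3.22 to 6.38 CPM in males (median 4.997). It did not pass (log2 -0.12, adjusted p = 0.669, and -0.0047, adjusted p = 0.989, without male 4).

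Of the adhesive and matricellular glycoproteins, Thbs2 separated the sexes. THBS2 is an anti-angiogenic thrombospondin made by fibroblasts. Its gene ran from 3.88 to 6.05 CPM in females (median 4.35) and from 2.07 to 3.84 CPM in males (median 2.99), with the highest male just under the lowest female. The fold was 1.56 towards females (log2 0.64, SE 0.16, adjusted p = 0.00522) and 1.7 without male 4 (adjusted p = 0.0011). Sparc, a collagen-binding glycoprotein, ran from 80.4 to 119.6 CPM in females (median 104) and from 62.6 to 116 CPM in males (median 76.5). Male 4 was the 116, and the other 5 males lay below every female. Sparc missed the threshold over all animals (1.27-fold, adjusted p = 0.0652) and passed without male 4 (1.41-fold, adjusted p = 0.00191). It also passed without female 9 or female 10, and over all animals with DESeq2, limma-voom or library totals. Fn1, fibronectin, which hepatocytes secrete into plasma as well as stellate cells into the matrix, ran from 1122 to 1574 CPM in females (median 1336) and from 1284 to 1795 CPM in males (median 1387). Its log2 difference of -0.09 did not pass (adjusted p = 0.475), with a 95% interval from -0.31 to 0.12, and without male 4 it was -0.01 (adjusted p = 0.928).

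The small leucine-rich proteoglycans bind collagen fibrils and growth factors. Of 2 tested members, 1 (50%) passed towards males over all animals, beside 22.7% of all genes. Without male 4 the other member (50%) passed towards females, beside 24.0% of all genes. Dcn, decorin, a binder of transforming growth factor beta, ran from 2.24 to 6.92 CPM in females (median 2.76) and from 3.75 to 14.2 CPM in males (median 6.20), and the ranges overlapped. It was 1.96-fold higher in males (log2 -0.97, SE 0.36, adjusted p = 0.0436). Male 4 was the 14.2, and without it the fold was 1.56 and the call was lost (adjusted p = 0.0983). The call was also lost without any of females 7, 9, 10 and 13 or males 1, 2, 3 and 5. Bgn, biglycan, ran from 84.2 to 111 CPM in females (median 105) and from 67.7 to 119.9 CPM in males (median 79.4), where the 119.9 was male 4. It did not pass over all animals (1.19-fold towards females, adjusted p = 0.0955) and passed without male 4 (1.31-fold, adjusted p = 0.00098). Lum and Postn were too sparse to test, at 16 female and 41 male counts for Lum and 5 and 7 for Postn.

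For transforming growth factor beta signalling, both receptors were higher in females, while the ligand gave no clear difference. Tgfbr2, the receptor that binds the ligand first, ran from 32.8 to 64.1 CPM in females (median 46.6) and from 29.1 to 40.6 CPM in males (median 33.0). It was 1.4-fold higher in females (log2 0.48, SE 0.13, adjusted p = 0.00881), and 1.39-fold without male 4 (adjusted p = 0.016). Tgfbr1, the kinase that signals onward to SMAD2 and SMAD3, ran from 44.1 to 52.8 CPM in females (median 49.1) and from 34.7 to 50.8 CPM in males (median 37.4), a 1.23-fold difference (adjusted p = 0.0148) that was 1.21-fold without male 4 (adjusted p = 0.0194). Ranges overlapped for both receptors. Tgfb1 ran from 2.08 to 2.96 CPM in females (median 2.69) and from 1.93 to 4.99 CPM in males (median 2.17). Male 4 held the 4.99, 2.34 times the mean of the other males. The log2 difference for Tgfb1 was 0.02 over all animals (adjusted p = 0.949) and 0.34 without male 4 (adjusted p = 0.041). Ctgf, now named Ccn2, a matricellular target of the pathway, ran from 2.37 to 4.85 CPM in females (median 4.28) and from 2.95 to 4.70 CPM in males (median 3.26), and did not pass (log2 0.21, adjusted p = 0.345, and 0.23, adjusted p = 0.318, without male 4).

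None of the 3 mesenchymal members passed the test over all 12 animals. Vim, the intermediate filament vimentin, ran from 13.4 to 21.2 CPM in females (median 17.7) and from 10.9 to 34.5 CPM in males (median 13.1). The 34.5 was male 4, 2.75 times the mean of the other males, whose highest was 13.9. Vim went from a log2 difference of 0.11 (adjusted p = 0.767) to 0.51 without male 4 (1.42-fold towards females, adjusted p = 0.00319). Pdgfrb, the growth factor receptor of stellate cells and pericytes, ran from 17.9 to 27.5 CPM in females (median 19.5) and from 11.1 to 20.7 CPM in males (median 17.7). It passed only without male 4 (1.29-fold towards females, adjusted p = 0.0478, against 0.112). Des, desmin, a filament of rat stellate and muscle cells, ran from 0.835 to 1.52 CPM in females (median 1.16) and from 1.09 to 3.24 CPM in males (median 1.35), with male 4 at 3.24. Its log2 difference was -0.43 (adjusted p = 0.236), or -0.08 without male 4 (adjusted p = 0.807).

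**Figure D3:**
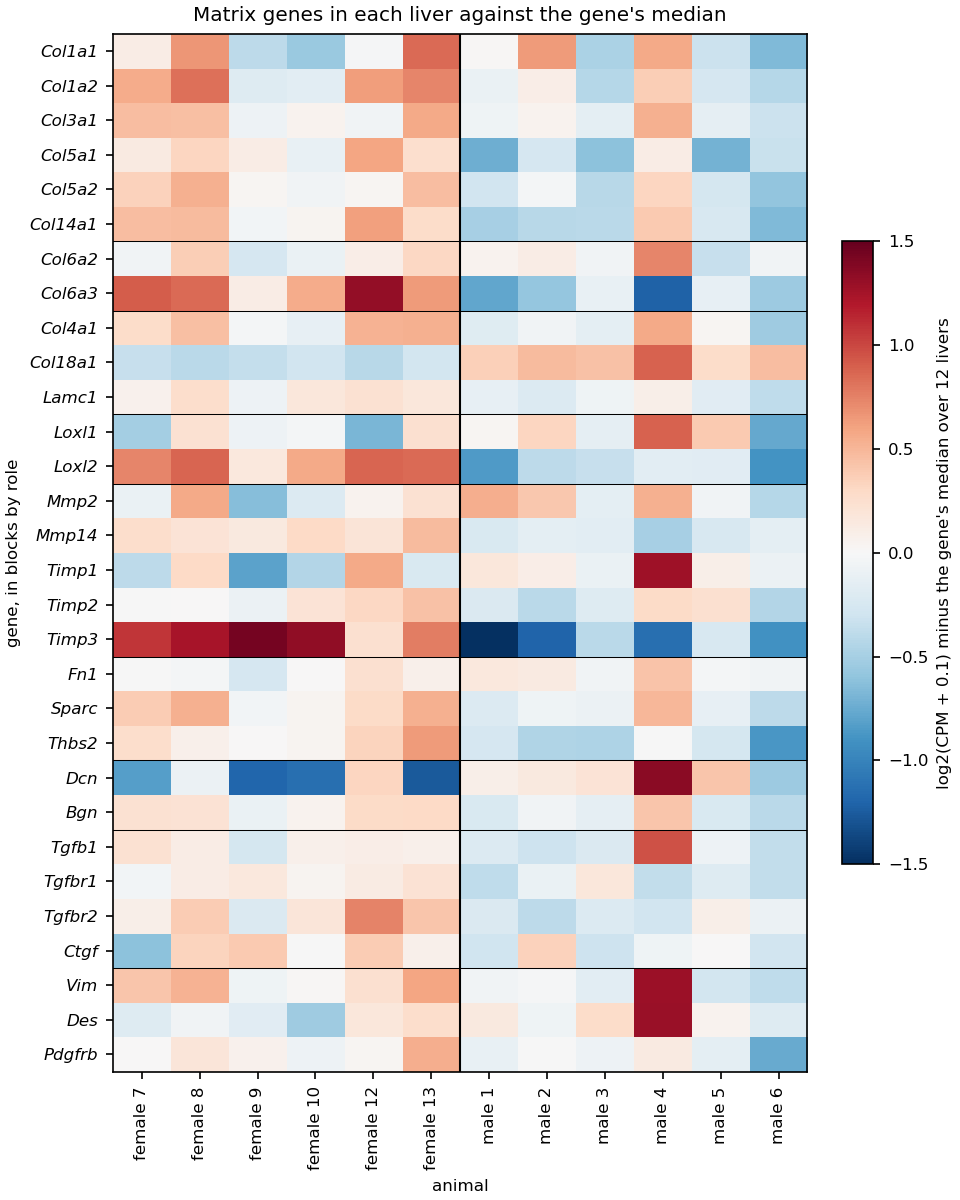
Level of each tested member in each animal, as log2(CPM + 0.1) minus that member's median over the 12 animals, with members in blocks by role, animals by sex, and colours ending at 1.5 in either direction. The column of male 4 is darkest for Vim, Des, Timp1 and Dcn and is below the median for Mmp14, Col6a3 and Timp3, while Timp3 and Loxl2 are above the median in every female.

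Animals of the same sex also differed from each other in many members at once. Female 9 was the lowest female for 18 of the 30 members and for 21.3% of all genes, and female 13 was the highest female for 13 members and for 14.6% of all genes. Female 12 differed most from the other females over all genes. The chi-square per degree of freedom of its counts against theirs was 40.9 to 57.3, against 6.34 to 30.02 for the other female pairs. It was the highest female for 24.3% and the lowest for 25.1% of all genes, and the highest female for 7 members and the lowest for 3. Among males, male 6 was the lowest for 18 members and for 16.4% of all genes. Male 4 was the highest of all 12 animals for 11 members and for 20.4% of all genes. Among tested members its excess over the mean of the other males was widest for Vim, Des, Dcn, Timp1 and Tgfb1. For Timp3, Col6a3 and Mmp14, which were higher in every female than in any male, male 4 lay below the mean of the other males. For Loxl2 and Thbs2, which were separated in the same way, it was 1.29 and 1.37 times that mean.

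Other genes of the matrix and its assembly were read from a wider list, of which 83 were tested. Of these, 22 (26.5%) were higher in females and 9 (10.8%) higher in males, where 20.5% and 22.7% of all genes were, and the median log2 difference was 0.16. Without male 4 the counts were 30 (36.1%) and 9 (10.8%), beside 24.0% and 22.4% of all genes, with a median of 0.26. The genes of this list that are named below, with values from all 12 animals, were called in the same direction without male 4. In collagen folding and processing, Plod2, a lysyl hydroxylase of collagen telopeptides, was 2.46-fold higher in females (adjusted p = 0.0013), P4ha1, a prolyl hydroxylase subunit, 1.77-fold (adjusted p = 0.00115), and Serpinh1, the collagen chaperone HSP47, 1.67-fold (adjusted p = 0.0146). Those were the only female-higher calls among the 16 tested genes of that group, 18.8%, near the share over all genes, and 2 genes (12.5%) were higher in males. Of 13 other proteases and inhibitors, 3 (23.1%) were higher in females, near the share over all genes, and 0 in males. Without male 4, 5 (38.5%) were higher in females, beside 24.0% of all genes, and 0 in males. The 3 called over all 12 animals were Plat, tissue plasminogen activator, at 1.54-fold, Adam17, a sheddase that TIMP3 inhibits, at 1.35-fold, and Mmp15, a membrane-type metalloproteinase, at 1.33-fold.

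In the wider transforming growth factor beta pathway, 9 of 21 tested genes (42.9%) were higher in females and 1 (4.76%) higher in males. Over all genes the shares were 20.5% and 22.7%. Tgfbr3, the coreceptor betaglycan, was 2.91-fold higher in females (adjusted p = 0.000124), Tgfb3, another ligand, 1.74-fold (adjusted p = 0.00915) and Bmpr2, a receptor for bone morphogenetic proteins, 1.46-fold (adjusted p = 0.00878). Among 12 matrix and growth factor receptors and ligands, 4 (33.3%) were higher in females and 2 (16.7%) higher in males. Itga1, a collagen-binding integrin chain, was 2.26-fold higher in females and Pdgfra 1.39-fold, whereas Pdgfc, a ligand for that receptor, was 1.63-fold higher in males. Of 21 other collagens and matrix proteins, 3 (14.3%) were higher in females and 4 (19.0%) in males. Without male 4 these were 7 (33.3%) and 4 (19.0%), beside 24.0% and 22.4% of all genes. The summed level of that list was 2302 to 2831 CPM in females and 3374 to 5038 CPM in males, without overlap. Most of it was Vtn, the plasma and matrix protein vitronectin, at 2109 to 2599 CPM in females and 3155 to 4780 CPM in males (1.55-fold higher in males, adjusted p = 0.000179), a gene singled out after its values were seen. Col8a1, a short-chain collagen of vessel walls, was 2.92 ± 0.782 CPM in females and 1.45 ± 0.337 CPM in males (SD, n = 6), Efemp1, a fibulin, was 2.4-fold higher in females, and Lamb3, a chain of epithelial laminin, was 2.44-fold higher in males.

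Marker lists were read for cell types that make or border the matrix. The sinusoidal endothelial list was called towards females in most of its genes over all 12 animals. Red cell genes were mostly called towards males, and the other lists were mixed or mostly not called. Summed stellate cell markers were 282 to 320 CPM in females, 242 to 270 CPM in males other than male 4, and 321 CPM in male 4, and each of the 14 genes was above 0 in all 12 libraries. Of 11 stellate markers tested, 4 (36.4%) were higher in females, among them Hgf at 2.31-fold and Hhip at 2.11-fold. Another 2 (18.2%) were higher in males, among them Rgs5 at 1.72-fold. The shares over all genes were 20.5% towards females and 22.7% towards males. Without male 4, 14 stellate markers were tested, with 6 (42.9%) higher in females and 1 (7.14%) in males. All genes then gave 24.0% and 22.4%. Sinusoidal endothelial markers summed to 109 to 142 CPM in females, 42.0 to 110 CPM in males other than male 4, and 93.8 CPM in male 4. Of these markers, 7 of 8 (87.5%) passed towards females, with Flt4 at 2.74-fold, Fcgr2b at 2.39-fold and Cdh5 at 2.28-fold. Kupffer cell and macrophage markers summed to 251 to 368 CPM in females. Over all animals 2 of 12 (16.7%) passed towards females, below the share over all genes. Without male 4, 11 of 12 (91.7%) did, beside 24.0% of all genes. Summed smooth muscle markers were 142 to 167 CPM in females and 132 to 143 CPM in males. Red cell genes ran the other way, at 328 to 777 CPM in females and 569 to 1389 CPM in males. Of 4 tested, 3 (75%) passed towards males over all animals and 0 without male 4. Portal fibroblast markers were low, at 5.96 to 9.31 CPM in females and 7.08 to 11.5 CPM in males. Adipocyte markers summed to 94.5 to 101 CPM in females and 108 to 128 CPM in males. Of the 2 tested, 1 passed towards each sex, while Lep, the defining adipocyte hormone gene, was at 0 counts in every library. Bile duct markers summed to 6.84 to 11.4 CPM in females and 6.55 to 15.5 CPM in males, and mesothelial markers to 0.831 to 2.91 and 0.82 to 1.60 CPM, with 0 of 3 and 0 of 1 tested genes passing. Hepatocyte markers summed to 228660 to 304502 CPM in females and 191165 to 252184 CPM in males. Gene by gene, 4 of the 7 tested (57.1%) were higher in males and 1 (14.3%), Alb, in females. Their median log2 difference was -0.41. The part of these cell types in the differences of the matrix members was not tested.

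**Figure D4:**
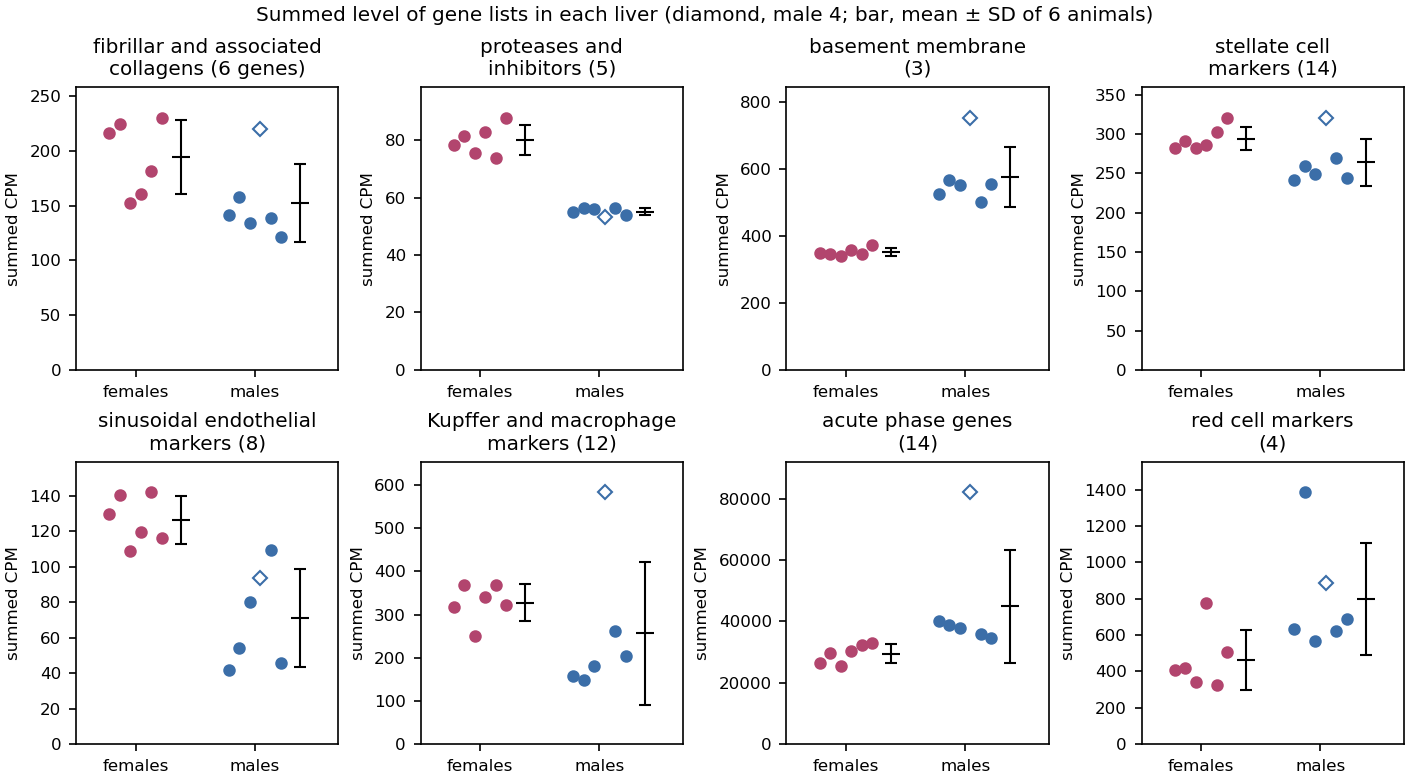
Summed CPM per animal of member groups and of cell type marker lists (linear axes from 0), with bars for the mean ± SD of each sex and a diamond for male 4. Protease and inhibitor sums lie higher in all females and basement membrane sums higher in all males, and male 4 lies above every other animal in the macrophage (584 CPM) and acute phase (82212 CPM) sums.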

How the data were processed

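Liver RNA of 6 female and 6 male rats, extracted with Trizol from tissue kept in RNAlater, went into TruSeq RNA libraries (Illumina), as the labels' protocols state. The deposited files hold raw counts per gene, 1 file per animal. Bowtie2 2.0.2, DESeq and build rn4 are named in the submitters' processing notes. The counter, the annotation and the handling of strand and of reads with several matches are not given in the sources used here. Genes with near-identical copies or antisense partners are therefore uncertain. Rows that name no gene held 27.1 to 31.7% of each file and were left out.

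Counts were tested, sex against sex, with edgeR 4.0.16 in R 4.3.3 (minimum count 10, minimum total count 15, TMM factors, robust quasi-likelihood F test), with Benjamini-Hochberg adjustment over 9943 genes and a threshold of 0.05. The fitting was also run on simulated counts with the same spread for every gene and no animal set apart. That run does not show how the fits handle an animal such as male 4. Levels are CPM scaled by TMM factors. The closest of 30 same-sex library pairs differed by a chi-square of 6.34 per degree of freedom, so none was a duplicate. Alternatives were DESeq2 1.42.0, limma 3.58.1 (voom), other scalings and filters, leaving out each animal, and leaving out male 4 with female 12. Members and gene lists were chosen with earlier results of these data known. Every counted member was named, and of each other list the called genes with the widest differences. That rule and the most abundant uncalled gene of each list named 53 genes, and only the 38 called ones are described, which was decided with their values in view, as was the later addition of Vtn and Alb. Lep was also named outside that rule.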

Additional observations from a re-analysis of the deposited data

Results flagged for a closer look

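In each sex the highest or lowest of the 6 animals was set against the nearest of the others, for 60 gene and sex combinations over the 30 tested members. In 14 the gap took up more of the range than the 95% limit for 6 values, where chance gives about 1 in 20. Male 4 was the high value in 11 of them. These were Col3a1 at 144 CPM, Col14a1 at 31.8, Col6a2 at 19.0, Col18a1 at 691, Timp1 at 5.54, Sparc at 116, Dcn at 14.2, Bgn at 119.9, Tgfb1 at 4.99, Vim at 34.5 and Des at 3.24 CPM. It was the low value for Mmp14, at 33.2 CPM. In females, female 9 was low for Tgfb1 at 2.08 CPM and female 13 was high for Pdgfrb at 27.5 CPM. Male 4 also had the highest acute phase and macrophage marker sums, and their part in its matrix levels was not tested.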

How the results depend on the processing

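The number of members higher in females was 12 or 13 under upper quartile factors, library totals, DESeq2, limma-voom, no filter, a mean of at least 1 CPM, and scaling without the 20 most abundant genes, and the 12 called over all animals were among them each time. It was 20 without male 4 and 17 with male 4 and female 12, the male and the female furthest from the others, both left out, where Timp2, Tgfb1 and Pdgfrb were no longer called and Dcn was called again. Leaving out single animals gave 10 to 20. The number higher in males was 1 with library totals and 1 with no filter, where Dcn missed the threshold, and 1 to 2 when single animals were left out. Sparc was called higher in females with library totals, DESeq2 and limma-voom, and Lox with no filter. Over all genes, leaving out single animals gave 3855 to 4627 calls, and over the wider matrix list 27 to 39. The female-higher calls over all genes were 2037 of 9943 in the main fit. They were 2000 to 2250 of 9536 to 13798 tested under the other scalings, filters and tests. With single animals left out they were 1810 to 2389 of 9972 to 10025 tested, and 2403 of 9927 without male 4 and female 12. Members that were not called could change direction. Col6a2 went to 0.0034 with upper quartile factors, 0.017 with limma-voom and 0.16 with male 4 and female 12 left out, where Loxl1 went to 0.093 and Mmp2 to 0.00674 on the log2 scale. Over single omissions Col1a1 ranged from -0.0036 to 0.36, Col6a2 from -0.091 to 0.16 and Tgfb1 from -0.065 to 0.34. The cause was not tested. No paired analysis was possible because the sexes share no replicate number. Depth limits the low members, since 3 counts correspond to up to 0.444 CPM before the scaling for composition, and Lox, Postn and Lum lie near that level.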

Other observations

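Genes outside the matrix that mark neighbouring cell types or the acute phase were named by the same rule. Among acute phase genes of the hepatocyte, Serpina3n was 2.14-fold higher in males (adjusted p = 0.000247), Hp, haptoglobin, 1.86-fold (adjusted p = 0.00878) and Orm1, orosomucoid, 2.9-fold (adjusted p = 0.0278), and every male lay above every female for each. Without male 4 these folds were 1.83, 1.43 and 1.53, and all 3 still passed. The call for Orm1 was lost without female 7, 12 or 13. Of the 14 genes on that list, 7 (50%) passed towards males and 1 (7.14%) towards females, where 22.7% and 20.5% of all genes did. Of 7 hepatocyte genes, 4 (57.1%) were higher in males and 1 (14.3%), Alb, albumin, was 1.27-fold higher in females (adjusted p = 0.0387). Without male 4 the counts were 3 (42.9%) and 1 (14.3%), beside 22.4% and 24.0% of all genes. The call for Alb was lost without females 10, 12 or 13 or males 1, 2 or 3. Those higher in males included Serpina1 at 1.59-fold, Ttc36 at 1.39-fold and Ttr, transthyretin, at 1.38-fold.

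The Kupffer cell receptors Clec4f and Cd163 were 1.69-fold and 1.81-fold higher in females, and 1.95-fold and 2.32-fold without male 4, and the call for Cd163 was lost without females 8 or 12 or males 1, 3 or 6. Smooth muscle markers were mixed. Myh11, the smooth muscle myosin heavy chain, was 1.5-fold higher in males, while Smtn, smoothelin, was 1.4-fold higher in females. Mylk, a myosin kinase, was also higher in females, by 0.16 on the log2 scale (adjusted p = 0.0348), and its call was lost without female 7 or 8. Eln, elastin, was 1.47-fold higher in males (adjusted p = 0.0236), a call that did not hold without female 7 or male 6. Of genes listed as adipocyte markers, Cfd was 1.94-fold higher in females and Cidec, a lipid droplet protein that fatty hepatocytes also express, 1.24-fold higher in males. The globin genes Hbb, Hba-a2 and Hbb-b1 were 1.74-fold, 1.71-fold and 1.68-fold higher in males over all animals, and each call was lost without male 4, female 9 or female 12. Those of Hba-a2 and Hbb-b1 were lost without females 7, 8 or 13 or male 2 as well.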
